A study of Mus musculus with 6 samples.

Results

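The axon guidance genes of the fetal mouse heart are the ligands and receptors of the semaphorin, ephrin, Slit and netrin systems. They were chosen by gene symbol: semaphorins of classes 3 to 7, plexins, ephrins, Eph receptors, Slits, Robos, netrins and Unc5 receptors, without Sema3d, Sema3g, Efnb2 and Robo4. This gave 61 of the 25006 genes in the count tables, 31 ligand genes and 30 receptor genes. Of these, 53 had a summed count of at least 60 over the 6 libraries and were tested, and 8 lay under this minimum.

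The libraries are RNA sequencing of heart ventricle from embryos of embryonic day 17.5 on an NMRI strain background. In 3 libraries, called null-labelled here, the genotype label gives VecadcreERT2 with floxed Prox1 alleles (Prox1f/f), a Cre recombinase that tamoxifen activates and the VE-cadherin promoter drives, so that it acts in endothelial cells of blood vessels and lymphatic vessels alike. In 3 libraries, the controls, the genotype label is WT, although both parents of the described cross carry floxed Prox1 alleles. All dams received 5 mg tamoxifen per 40 g body weight at E13.5 and E14.5, so the agent is shared by both groups while the Cre is named for 1 of them, and Cre activity and Prox1 deletion cannot be told apart. Prox1 is the transcription factor that lymphatic endothelial cells need to form and to keep their fate. The labels do not say whether a library is 1 embryo or a pool, and p-values measure the spread between these libraries.

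Guidance cues were first known from growing axons, and vessels, heart valves and cardiac nerves use the same families. Semaphorins signal through plexins, with neuropilins as co-receptors for most class 3 members. Ephrins are membrane-bound ligands of the Eph receptor tyrosine kinases, Slits bind Robos, and netrins bind Dcc, neogenin and the Unc5 receptors. In the mouse heart Plxnd1 and its semaphorin ligands take part in outflow tract and vessel patterning, Ephb4 with ephrin-B2 separates veins from arteries, and Sema3a shapes sympathetic innervation.

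Total counts ranged from 35195544 to 44330594 per library. The targeted gene went against the label: Prox1 stood at 164, 159.8 and 168 CPM (counts scaled to library size by edgeR's TMM factors) in null-labelled libraries against 149, 143 and 149 CPM in controls, with the groups apart, and it was higher in the null-labelled libraries at the threshold used throughout (log2 fold change 0.15 ± 0.03, adjusted p = 0.0293). That call ended without null 1, null 2, null 3, control 1 or control 2 (adjusted p from 0.0637 to 0.125), as it did once sex was added as a term (adjusted p = 0.0546), and the log2 fold change stayed between 0.14 and 0.17 when any 1 library was left out. Cardiomyocytes express Prox1 too, the Cre is driven by the VE-cadherin promoter, and the labels do not say which exons are floxed. Whether any of these bears on the Prox1 level was not tested. Esr1, whose hormone-binding part is fused to such a Cre, had 298, 244 and 290 counts in null-labelled libraries against 14, 9 and 19 counts in controls. Null 1 and null 3 held Y-linked transcripts (229 and 241 CPM over 4 genes) together with Xist (44.7 and 139 CPM), whereas null 2 and control 3 had Xist at 1390 and 1400 CPM and control 1 and control 2 under 1 CPM. Control 3 also had 322 counts of the liver gene Alb, against 20 to 125 in null-labelled libraries and 3 and 12 in the other controls. Transcripts of 3 lung genes summed to 4.15 CPM in null 2, against 0.124 and 0.29 CPM in the other null-labelled libraries and 0.0454 to 0.139 CPM in controls. Values without these libraries are given beside the results.

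Of the 53 guidance genes tested, 6 changed between null-labelled and control ventricles at an adjusted p under 0.05, which is 11.3% where 5.37% of all 14773 genes tested changed. Epha4 and Plxna4 rose, and Sema7a, Sema6a, Sema3b and Plxnd1 fell; all genes gave 2.40% higher and 2.97% lower. The groups did not overlap in 17 of the 53 genes (32.1%), 10 with the null-labelled libraries above and 7 with them below, where the share over all genes was 26.6%. At an unadjusted p under 0.05 there were 18 of 53, 11 higher and 7 lower, where 20.5% of all genes passed, 9.53% higher and 11.0% lower. The null-labelled libraries lay above without overlap in 12.6% of all genes and below in 14.0%. Of 28 ligand genes tested 0 rose and 3 fell, with 17 above 0 and 11 below, and of 25 receptor genes 2 rose and 1 fell, with 20 above 0 and 5 below. Over all tested genes 7202 lay above 0 and 7571 below. The median log2 fold changes were 0.04 in ligand genes and 0.14 in receptor genes. No ligand gene rose in limma-voom either, while DESeq2 called Efna5 and Sema5a higher; 6 ligand genes higher and 5 lower had an unadjusted p under 0.05. The ligand median was below 0 without control 2 (-0.02) and with null 2 alone (-0.04). The differences were small: the median size of the log2 fold change, null-labelled over control, was 0.18 over the 53 genes and 0.09 over all genes tested, and the signed medians were 0.08 and -0.004.

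**Figure D1:**
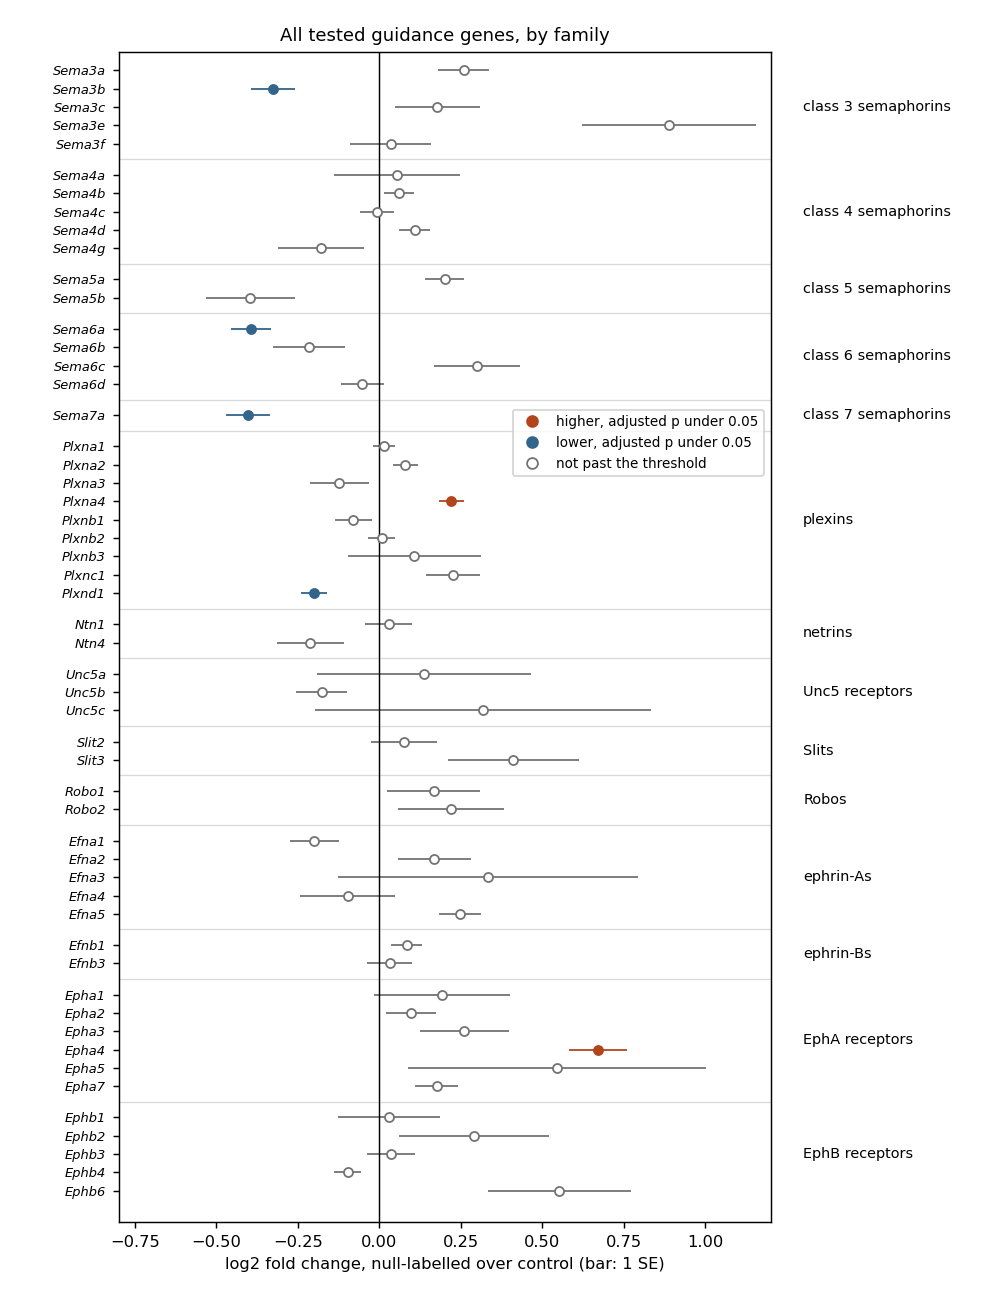
Log2 fold change of each of the 53 tested guidance genes, null-labelled over control, with 1 standard error, grouped by family; filled points passed an adjusted p of 0.05. The 2 filled points right of 0 are Plxna4 and Epha4, and the 4 left of 0 are Sema3b, Sema6a, Sema7a and Plxnd1.

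Epha4 (chromosome 1, 77367185 to 77515088 in GRCm38, minus strand), a receptor tyrosine kinase that binds both A-type and B-type ephrins, had the largest change of the 6 guidance genes past the threshold. It had 34.2, 36.7 and 36.9 CPM in null-labelled libraries against 19.4, 23.0 and 25.4 CPM in controls. Every null-labelled library lay above every control. The means were 35.9 ± 1.52 CPM in null-labelled libraries and 22.6 ± 2.99 CPM in controls (SD, n = 3 each), a log2 fold change of 0.67 ± 0.09 (SE) or 1.59-fold, with adjusted p = 0.00656 by edgeR's quasi-likelihood test. Leaving out any single library kept the call (adjusted p from 0.00161 to 0.035), with log2 fold changes from 0.57 to 0.76. With null 2 as the only null-labelled library the log2 fold change was 0.70 and the call ended (adjusted p = 0.175).

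Sema7a (chromosome 9, 57940112 to 57962865, plus strand) encodes a semaphorin anchored to the membrane by a lipid, a ligand of plexin C1 and of beta1 integrins. It had 40.9, 37.8 and 35.1 CPM in null-labelled libraries and 54.0, 49.0 and 47.5 CPM in controls, with no overlap. It fell 1.32-fold (log2 fold change -0.40 ± 0.07, adjusted p = 0.0121). The call ended without null 2 (adjusted p = 0.0561, log2 fold change -0.40) and without null 3 (adjusted p = 0.0509, log2 fold change -0.35). Its receptor gene Plxnc1 had 31.9, 30.5 and 26.6 CPM in null-labelled libraries against 24.7, 23.6 and 27.9 CPM in controls, which overlap, and it did not pass (log2 fold change 0.23 ± 0.08, adjusted p = 0.16).

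Sema6a, on chromosome 18, a transmembrane semaphorin that binds plexin A2 and plexin A4, had 25.3, 23.1 and 22.5 CPM in null-labelled libraries and 32.2, 31.4 and 29.6 CPM in controls. The groups did not overlap and the gene fell 1.32-fold (log2 fold change -0.40 ± 0.06, adjusted p = 0.00913); it kept its call without any single library (adjusted p from 0.00938 to 0.0446). Plxna4 (chromosome 6, 32144268 to 32588192, minus strand), which encodes a plexin of sympathetic and sensory neurons among other cells, moved the other way. It had 89.0, 88.0 and 91.9 CPM in null-labelled libraries and 75.8, 76.1 and 78.7 CPM in controls, a rise of 1.17-fold (log2 fold change 0.22 ± 0.04, adjusted p = 0.0136) that did not pass without null 3 (adjusted p = 0.0557, log2 fold change 0.20). The other receptor gene of Sema6a, Plxna2, had 81.1, 78.5 and 77.6 CPM in null-labelled libraries and 73.5, 75.0 and 76.0 CPM in controls, above them in all libraries but not past the threshold (log2 fold change 0.08 ± 0.04, adjusted p = 0.285).

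Plxnd1 (chromosome 6, 115954811 to 115995005, minus strand) encodes the plexin of vascular endothelium, the receptor of semaphorin 3E and, with neuropilins, of other class 3 semaphorins. It had 380.0, 378 and 364 CPM in null-labelled libraries and 442, 418 and 429 CPM in controls. It fell 1.15-fold (log2 fold change -0.20 ± 0.04, adjusted p = 0.024). The groups were apart, but the call ended when some single libraries were left out. The adjusted p was 0.0594, 0.08 and 0.0962 without null 1, null 2 and null 3 and 0.0595 without control 1. The log2 fold change changed little, at -0.21, -0.21, -0.18 and -0.18 in these fits. Sema3b (chromosome 9, 107597674 to 107609229, minus strand), a secreted class 3 semaphorin, had 27.7, 29.2 and 26.8 CPM in null-labelled libraries and 34.5, 32.3 and 38.2 CPM in controls and fell 1.255-fold (log2 fold change -0.33 ± 0.07, adjusted p = 0.0247). Its call ended without null 1, null 2 or null 3 (adjusted p of 0.0811, 0.0591 and 0.0942). With null 2 as the only null-labelled library, Sema7a, Sema6a, Plxna4, Plxnd1 and Sema3b had log2 fold changes of -0.41, -0.43, 0.19, -0.19 and -0.26, and none of them passed (adjusted p from 0.137 to 0.452).

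**Figure D2:**
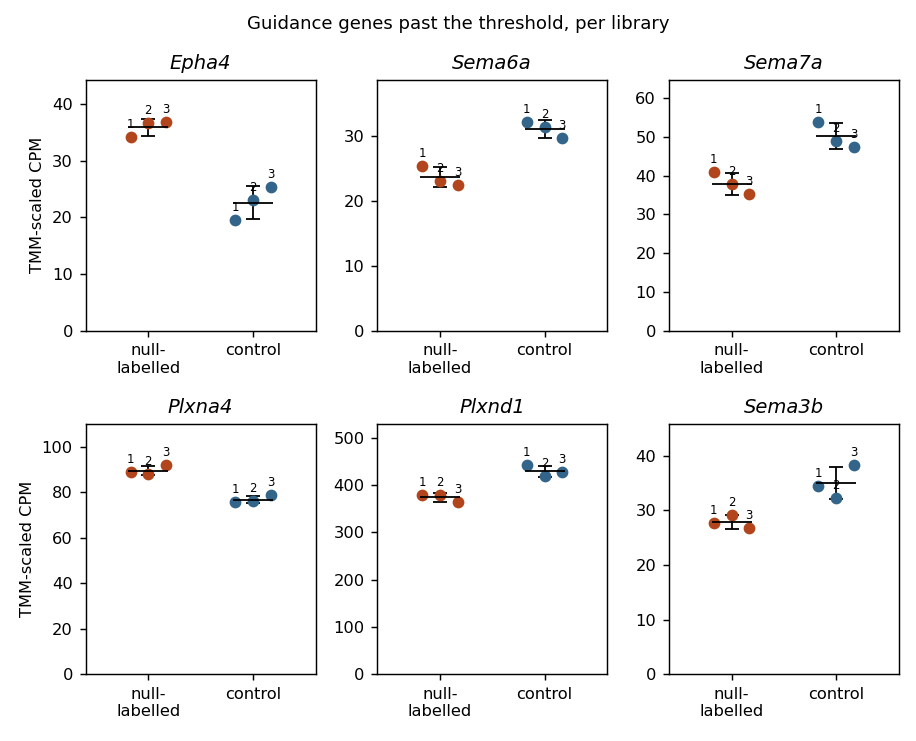
TMM-scaled CPM of the 6 guidance genes past the threshold in each library; numbers are replicate numbers, bars are the mean and SD of 3 libraries, and each vertical axis starts at 0. For each gene the null-labelled points, on the left, do not overlap the controls; Epha4 and Plxna4 lie above them and the other 4 below.

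**Figure D3:**
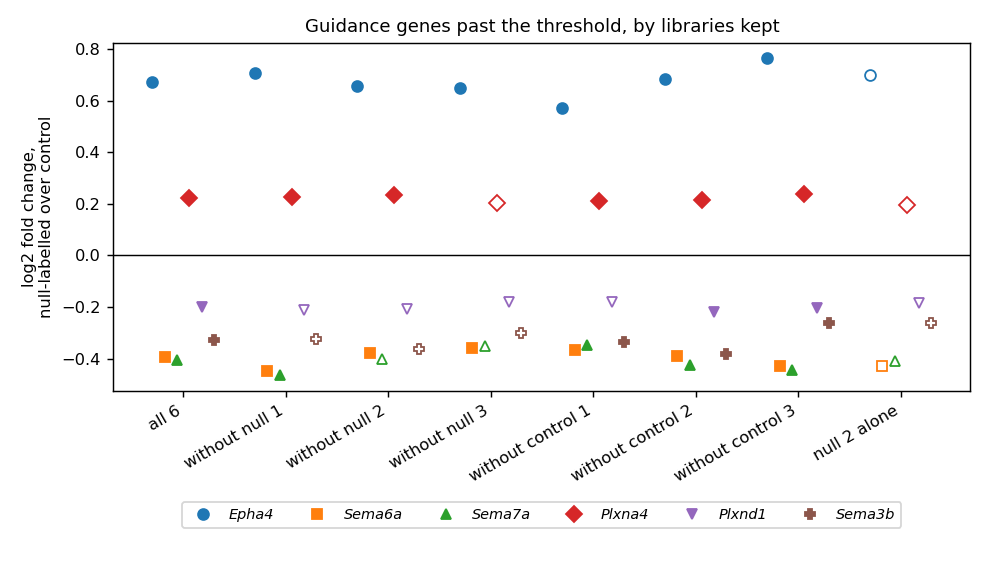
Log2 fold change of the same 6 genes, null-labelled over control, with all 6 libraries, without each library in turn and with null 2 alone against the 3 controls. Filled points passed an adjusted p of 0.05; Epha4 and Sema6a are filled without any single library, no point changes sign, and with null 2 alone all are open.

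Marker lists of several cell types moved as well. Of 8 endothelial markers 5 were lower and 0 higher, and their summed level was 1310 to 1400 CPM in null-labelled libraries against 1470 to 1630 CPM in controls; the number lower was 1 without null 2 or null 3, 3 without control 1 and 0 with null 2 alone, with list medians from -0.26 to -0.19 in these fits. Of 7 fibroblast markers 3 were higher (6940 to 7740 CPM in null-labelled libraries against 5630 to 6590 CPM in controls), and 0 to 2 were higher without null 1, null 2, null 3, control 1 or control 2 and 4 without control 3. Of 6 macrophage markers 4 were higher (84.3 to 105 CPM in null-labelled libraries against 64.8 to 76.0 CPM in controls), with 0 higher without null 1, null 2, control 1 or control 2. Schwann cell markers summed to 30.6 to 32.6 CPM in null-labelled libraries against 33.5 to 35.1 CPM in controls, and neuronal markers to 6.14 to 7.84 CPM in null-labelled libraries against 6.25 to 7.64 CPM in controls. Of 6 lymphatic endothelial markers 2 were lower, Reln and Mmrn1, and Ccl21a was at 0 in all libraries; 1 was lower without null 2, null 3 or control 2 and with null 2 alone. The lymphatic list summed to 102 to 105 CPM in null-labelled libraries against 118 to 136 CPM in controls. Log2 fold changes were -2.38 for Mmrn1 and -0.72 for Reln, against -0.11, -0.05 and -0.05 for Lyve1, Flt4 and Pdpn, which did not pass. Of 6 epicardial markers 2 were lower, Krt19 and Upk1b (172 to 193 CPM in null-labelled libraries against 195 to 227 CPM in controls for the list), with 0 lower without null 2, null 3 or control 1 and 1 without control 3. Tbx18, Wt1, Upk3b and Msln had log2 fold changes of 0.002, -0.075, -0.225 and -0.41 and did not pass. With null 2 alone the list median was -0.38. Erythroid markers, of which 0 of 6 tested passed, summed to 1210 to 1970 CPM in null-labelled libraries against 1750 to 5070 CPM in controls, with a median log2 fold change of -0.94. Of 8 pericyte and smooth muscle markers 1 was lower, Cspg4, and 0 without null 1, null 2 or null 3. Without control 1, 1 was higher and 1 lower. The list summed to 1750 to 1860 CPM in null-labelled libraries against 1660 to 2200 CPM in controls. Log2 fold changes were 0.16, 0.12 and 0.03 for Abcc9, Kcnj8 and Pdgfrb. They were -0.72, -0.57, -0.17 and -0.12 for Myh11, Tagln, Acta2 and Rgs5, and none of these genes passed. Cardiomyocyte markers were by far the most abundant list, at 57200 to 59100 CPM in null-labelled libraries and 56100 to 60700 CPM in controls. Of the 8, 1 was lower, Actc1, and 0 without null 2, null 3, control 1 or control 2. Without control 1, 2 were higher. With all libraries, Ryr2, Pln, Myh6, Tnni3, Myh7 and Tnnt2 had log2 fold changes of 0.23, 0.17, 0.14, 0.085, 0.04 and 0.01. None of these genes passed, and the cardiomyocyte list median was 0.06. Nppa, on the same list, averaged 277 CPM in null-labelled libraries against 704 CPM in controls. The groups were apart, but Nppa did not pass (log2 fold change -1.35 ± 0.32, adjusted p = 0.107). The part of these shifts in the guidance genes was not tested, and in whole ventricle fewer cells of a type and less RNA per cell cannot be told apart.

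Promoters are shown for the called genes with an entry in the RefSeq promoter table of GRCm38.p6, 3 of 6, since Epha4 rose while Plxnd1 and Sema7a fell. Each is 250 bases before to 50 bases after the gene's start, read 5′ to 3′ on the gene's strand; capitals mark matches, on either strand, to the TATA box (TATAAA), the CAAT box (written as CCAAT), the GC box (written as GGGCGG) and the ETS core (written as CCGGAA).
Epha4 (chr1:77515039-77515338, minus strand): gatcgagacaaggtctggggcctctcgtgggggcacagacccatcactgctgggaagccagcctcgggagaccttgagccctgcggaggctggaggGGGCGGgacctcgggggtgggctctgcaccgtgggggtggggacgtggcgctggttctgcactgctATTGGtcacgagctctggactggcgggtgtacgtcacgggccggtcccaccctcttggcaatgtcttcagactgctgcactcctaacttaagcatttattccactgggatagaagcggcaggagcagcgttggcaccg
Plxnd1 (chr6:115994956-115995255, minus strand): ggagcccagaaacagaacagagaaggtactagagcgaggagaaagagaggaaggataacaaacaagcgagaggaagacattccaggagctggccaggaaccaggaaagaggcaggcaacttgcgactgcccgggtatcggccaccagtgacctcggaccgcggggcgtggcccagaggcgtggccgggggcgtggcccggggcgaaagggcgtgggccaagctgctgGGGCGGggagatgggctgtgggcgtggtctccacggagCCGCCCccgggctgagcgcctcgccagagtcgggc
Sema7a (chr9:57939862-57940161, plus strand): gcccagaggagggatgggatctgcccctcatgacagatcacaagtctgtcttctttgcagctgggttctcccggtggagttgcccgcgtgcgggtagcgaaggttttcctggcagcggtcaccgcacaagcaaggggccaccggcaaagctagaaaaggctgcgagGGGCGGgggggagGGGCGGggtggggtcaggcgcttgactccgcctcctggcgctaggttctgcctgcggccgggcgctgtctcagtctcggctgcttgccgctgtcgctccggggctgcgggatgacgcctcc
Plxnd1 and Sema7a each had 2 GC boxes in this window, and Epha4 had 1 GC box and 1 CAAT box. No TATA box or ETS core match lay in the 3 windows, and no matches overlapped. Over the 62 promoters of tested guidance genes in the table, 71% held a GC box, 22.6% a CAAT box, 9.68% an ETS core and 1.61% a TATA box, against 35.7%, 37.4%, 14.9% and 13.6% of all 32851 promoters. The guidance promoters had a median of 21 CpG dinucleotides against 7 over all promoters. The guidance side held tested genes only, some of them with several entries, while the other side held every promoter, also of genes not tested here. Promoters of all tested genes were not compared, so the part of the count filter in these differences was not tested.

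Levels between genes were compared as CPM per kb of exon length. The tested guidance genes spanned 0.0195 CPM per kb for Epha5 to 55.0 CPM per kb for Plxnd1, with a median of 3.49 over all 6 libraries, and 14 lay above 10 CPM per kb.  Plxnd1 stood at 52.0, 51.8 and 49.8 CPM per kb in null-labelled libraries against 60.5, 57.3 and 58.7 in controls, and Plxnb2, the receptor of several class 4 semaphorins, at 52.2, 53.6 and 55.5 in null-labelled libraries against 52.4, 53.9 and 54.2 in controls. In controls Plxnd1 was therefore the higher of the pair in each library, and in null-labelled libraries Plxnb2 was. Ntn1 (44.6 CPM per kb over all libraries), Efnb3 (44.3), Ephb4 (37.0) and Unc5b (28.7) followed, and kept their rank from 3 to 6 in both groups.

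**Figure D4:**
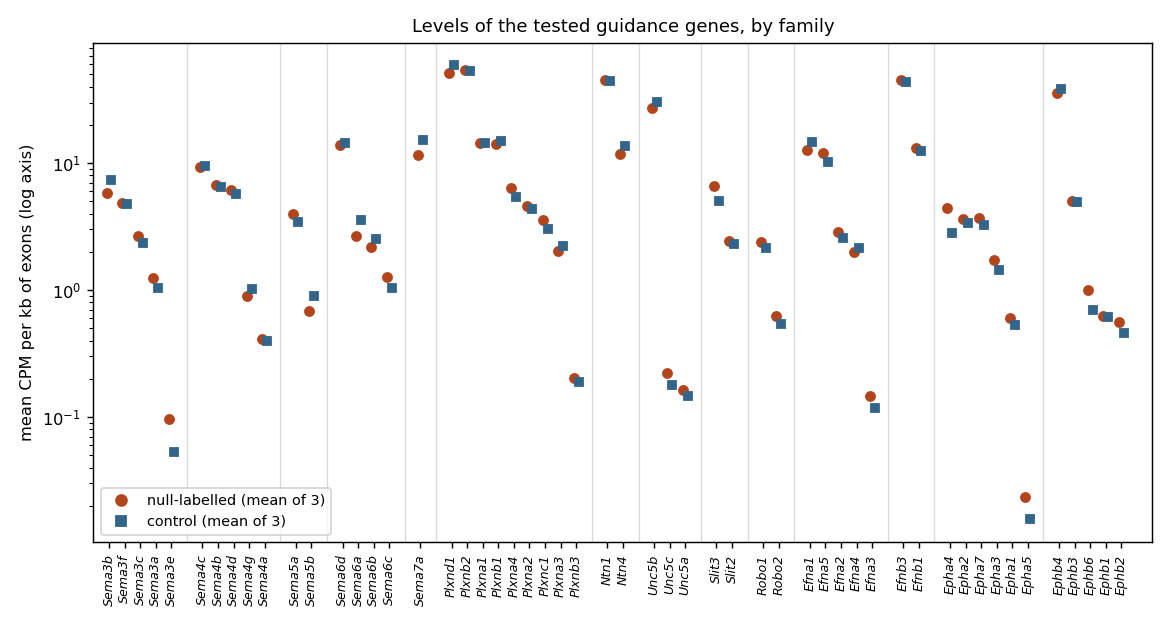
Mean level of the tested guidance genes in CPM per kb of exons on a log axis, by family and in falling order within a family; circles are null-labelled and squares control means of 3 libraries. Plxnd1 and Plxnb2 stand highest, at 51.2 and 53.7 CPM per kb in null-labelled libraries and 58.8 and 53.5 in controls.

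Among the semaphorins, the family of 18 genes with 17 tested, 3 fell and 0 rose, and 9 genes lay above 0 and 8 below. Median log2 fold changes were 0.18 in class 3, 0.05 in class 4, -0.10 in class 5 and -0.13 in class 6. With 1 library left out they ranged from 0.03 (without control 1) to 0.28 (without control 3) in class 3, from -0.18 (without null 1) to -0.03 (without control 3) in class 5 and from -0.17 (without control 2) to -0.07 (without control 1) in class 6. That of class 4 was -0.01 without null 1 or control 1 and -0.08 with null 2 alone. The class 3 members are secreted. Sema3a, a repellent of sympathetic axons, had 17.3, 17.8 and 16.4 CPM in null-labelled libraries and 13.7, 13.4 and 15.9 CPM in controls, apart but not past the threshold (log2 fold change 0.26 ± 0.08, adjusted p = 0.0964). Sema3e, the direct ligand of plexin D1, was scarce, with 43, 25 and 39 counts in null-labelled libraries and 20, 16 and 20 counts in controls; its log2 fold change of 0.89 ± 0.27 was the largest over all 53 genes and did not pass (adjusted p = 0.0897). Sema3f had 29.0, 22.9 and 23.9 CPM in null-labelled libraries and 23.1, 22.2 and 28.7 CPM in controls, which overlap. Sema3c, a cue for neural crest cells in the outflow tract, likewise overlapped (log2 fold change 0.18 ± 0.13).

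Of 5 tested class 4 semaphorins 0 passed in edgeR, DESeq2 or limma-voom, and 1, Sema4d, had an unadjusted p under 0.05. Sema4c had 43.2, 40.9 and 44.6 CPM in null-labelled libraries and 43.3, 41.0 and 45.3 CPM in controls, the flattest of the class (log2 fold change -0.01 ± 0.05). Sema4b had 37.6, 37.5 and 39.5 CPM in null-labelled libraries and 37.4, 35.5 and 36.9 CPM in controls. Sema4d, the ligand of plexin B1, had 45.4, 46.8 and 49.3 CPM in null-labelled libraries and 43.5, 42.8 and 45.0 CPM in controls (adjusted p = 0.232), while Plxnb1 overlapped between groups (log2 fold change -0.08 ± 0.06).

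The class 5 pair, transmembrane proteins with thrombospondin repeats, pointed in opposite directions without passing. Sema5a had 78.9, 72.0 and 71.2 CPM in null-labelled libraries and 60.3, 64.1 and 69.0 CPM in controls (log2 fold change 0.20 ± 0.06, adjusted p = 0.0874). Sema5b had 5.57, 4.37 and 4.50 CPM in null-labelled libraries and 6.52, 5.47 and 7.02 CPM in controls (log2 fold change -0.40 ± 0.14, adjusted p = 0.134). In class 6, beside Sema6a, the most abundant member was Sema6d, a ligand of plexin A1 in the developing chick heart, with 144, 146 and 150.1 CPM in null-labelled libraries and 154, 136 and 166 CPM in controls. Sema6c had 6.91, 8.11 and 7.53 CPM in null-labelled libraries and 5.07, 6.22 and 7.10 CPM in controls; both overlapped between groups, and Sema6c had an adjusted p of 0.239.

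Of the 9 plexin genes, 1 rose, 1 fell and 7 did not pass. The family's summed level was 149 to 151 CPM per kb in null-labelled libraries against 155 to 158 CPM per kb in controls, the highest of all families, with Plxnd1 and Plxnb2 making up most of it. Plxnb2 had 403, 414 and 428 CPM in null-labelled libraries and 404, 416 and 418 CPM in controls, a log2 fold change of 0.01 ± 0.04. Plxna1 was as flat, at 0.02 ± 0.03.

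Among the Eph receptors, 10 of 11 tested genes lay above 0 and 1, Ephb4, below, where 7202 of all tested genes lay above 0 and 7571 below. Of the 11, 1 rose, Epha4 (9.09%, beside 5.37% of all genes called), and 10 did not pass. Without control 1, 8 of the 11 lay above 0. All 6 tested EphA genes lay above 0, with a median log2 fold change of 0.23 that ranged from 0.11 without control 1 to 0.38 without control 3, and was 0.15 with null 2 alone, where 5 of 6 lay above 0. The sign held under each scaling. Their summed level was 14.4, 13.8 and 14.3 CPM per kb in null-labelled libraries against 10.2, 11.6 and 12.7 in controls, the groups apart. Epha7, which binds ephrin-As, had 37.2, 36.6 and 36.1 CPM in null-labelled libraries and 29.1, 33.0 and 35.2 CPM in controls (log2 fold change 0.18 ± 0.07, adjusted p = 0.167). Epha2, an endothelial and epithelial receptor of ephrin-A1, had 17.9, 15.8 and 17.4 CPM in null-labelled libraries and 15.0, 15.6 and 17.1 CPM in controls, which overlap.

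Ephb4, the receptor of venous and lymphatic endothelium, was the most abundant Eph gene. It had 172.5, 161 and 164 CPM in null-labelled libraries and 186, 173 and 172.5 CPM in controls; every null-labelled value lay below every control, although null 1 and control 3 both came to 172.5 CPM when rounded, and the gene did not pass (log2 fold change -0.10 ± 0.04, adjusted p = 0.227). Ephb3 had 32.1, 34.1 and 34.5 CPM in null-labelled libraries and 30.3, 31.2 and 36.8 CPM in controls. Ephb6, a receptor without kinase activity, had 4.85, 3.08 and 3.51 CPM in null-labelled libraries and 2.11, 2.39 and 3.34 CPM in controls (log2 fold change 0.55 ± 0.22, adjusted p = 0.194). Both overlapped.

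None of the 7 ephrin genes tested passed, and 2 had an unadjusted p under 0.05, in opposite directions. The median log2 fold change was 0.17 over the 5 ephrin-A genes, and -0.01 without null 3 or with null 2 alone. Efna5 had 53.3, 46.8 and 46.2 CPM in null-labelled libraries and 38.7, 41.5 and 43.2 CPM in controls (log2 fold change 0.25 ± 0.07, adjusted p = 0.0601); DESeq2 called it (adjusted p = 0.0212), as did edgeR without a filter on low counts (adjusted p = 0.0312) and without control 3 (adjusted p = 0.0493). Efna1, an endothelial ephrin, had 23.0, 25.7 and 21.1 CPM in null-labelled libraries and 28.0, 25.8 and 26.4 CPM in controls (log2 fold change -0.20 ± 0.08, adjusted p = 0.166). Null 2 lay just under the lowest control. Efnb3, the most abundant ephrin, had 138, 133 and 156 CPM in null-labelled libraries and 149.5, 131 and 137 CPM in controls, and Efnb1 had 46.3, 46.4 and 43.5 CPM in null-labelled libraries and 44.3, 42.7 and 41.5 CPM in controls.

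Of 9 tested genes of the netrin, Unc5, Slit and Robo families 0 passed in edgeR, DESeq2 or limma-voom, and 0 had an unadjusted p under 0.05. The median log2 fold change was 0.24 over the Slits, 0.19 over the Robos and -0.09 over the netrins, and 0.14 over the Unc5 receptors, which turned to -0.09 without control 1 and -0.15 without control 2. The median was 0.13 without control 2 and 0.40 without control 3 for the Slits, 0.03 without control 1 and 0.34 without control 3 for the Robos, and -0.05 without control 1 and -0.15 without control 3 for the netrins. Ntn1, a secreted netrin, had 280.4, 274 and 294 CPM in null-labelled libraries and 309.7, 253 and 269.8 CPM in controls. Ntn4, a netrin of vascular basement membranes, had 44.3, 44.9 and 43.6 CPM in null-labelled libraries and 51.4, 59.2 and 43.4 CPM in controls. Without control 3, Ntn4 passed with a log2 fold change of -0.32 (adjusted p = 0.0197). Unc5b, the endothelial netrin receptor, had 174, 162 and 170.2 CPM in null-labelled libraries and 176, 181 and 216 CPM in controls, apart by a small gap and not past the threshold (log2 fold change -0.18 ± 0.08, adjusted p = 0.259). Unc5c had 5.20, 4.34 and 3.19 CPM in null-labelled libraries and 1.32, 3.53 and 5.49 CPM in controls, a wider spread within each group than between them.

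Slit3, a secreted ligand of Robo receptors, had 44.6, 39.0 and 37.1 CPM in null-labelled libraries and 26.1, 25.3 and 39.6 CPM in controls. Control 3 alone stood among the null-labelled values (log2 fold change 0.41 ± 0.20, adjusted p = 0.329), and without it Slit3 passed with a log2 fold change of 0.65 (adjusted p = 0.00524). Slit2 had 61.0, 61.9 and 62.5 CPM in null-labelled libraries and 62.8, 48.6 and 64.4 CPM in controls. Robo1, a receptor of Slits, had 38.1, 39.8 and 41.2 CPM in null-labelled libraries and 27.6, 37.5 and 41.3 CPM in controls, and Robo2 had 10.6, 10.3 and 11.2 CPM in null-labelled libraries and 6.86, 9.58 and 11.3 CPM in controls. In both Robo genes control 1 was the low library.

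Genes under the summed count minimum were Epha6 at 0 counts in all libraries, Epha10 (4 counts in all), Epha8 and Ntn5 (9 each), Sema4f (25), Robo3 (28), Slit1 (29) and Unc5d (54). The lowest tested genes were Efna3 (76 counts) and Epha5 (77). Exons of Ntn5, Efna3, Plxna1 and Efna4 overlap those of a gene on the other strand over 23.4%, 14.1%, 10.7% and 10.5% of their length, and of the called genes Plxna4 does over 0.8%; the strand setting of the counting is not given in the sources used here, so reads there cannot be assigned to a strand. The members lie on 18 chromosomes, and 14 have another member starting within 1 Mb. Of the 6 called genes 1 does: Sema3b on chromosome 9 starts 83.8 kb from Sema3f, which did not pass.

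The family genes outside the list included 1 that changed. Sema3g, an endothelial class 3 semaphorin, had 25.3, 22.2 and 23.8 CPM in null-labelled libraries and 31.6, 29.5 and 27.8 CPM in controls and fell (log2 fold change -0.32 ± 0.07, adjusted p = 0.028), a call that ended without null 2, null 3, control 1 or control 2 (adjusted p of 0.105, 0.0932, 0.082 and 0.0723). Efnb2, the arterial ligand of Ephb4, had 66.5, 60.9 and 55.8 CPM in null-labelled libraries and 70.3, 70.9 and 84.4 CPM in controls and did not pass (log2 fold change -0.30 ± 0.09, adjusted p = 0.107). Robo4 and Sema3d had log2 fold changes of -0.13 and 0.15 and did not pass (adjusted p of 0.286 and 0.565). With these genes counted in, 7 of 57 tested changed (12.3%, beside 5.37% of all genes), 2 higher and 5 lower.

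Of 60 listed partners of the guidance receptors 58 were tested, and 4 rose and 3 fell (12.1%, beside 5.37% of all genes). Of 18 co-receptors and other surface or secreted partners 16 were tested. Of the 16, 3 rose (18.8%) and 0 fell, and 5 higher and 2 lower had an unadjusted p under 0.05. Flrt2, a membrane ligand of Unc5 receptors, had 85.7, 83.8 and 91.8 CPM in null-labelled libraries and 64.7, 66.5 and 71.0 CPM in controls (log2 fold change 0.37 ± 0.05, adjusted p = 0.00504). Neo1, the netrin and repulsive guidance molecule receptor neogenin, had 216, 218 and 201 CPM in null-labelled libraries and 192, 173 and 180.1 CPM in controls (log2 fold change 0.22 ± 0.05, adjusted p = 0.0308). Its ligand gene Rgmb had 30.9, 33.0 and 30.9 CPM in null-labelled libraries and 26.0, 25.1 and 27.0 CPM in controls (log2 fold change 0.28 ± 0.05, adjusted p = 0.0188). For all 3 the groups were apart. Rgma, another neogenin ligand gene, had 25.4, 20.0 and 20.3 CPM in null-labelled libraries and 15.0, 17.2 and 12.2 CPM in controls and did not pass (log2 fold change 0.57 ± 0.14, adjusted p = 0.0655), while DESeq2 (adjusted p = 0.000809) and edgeR with a sex term (adjusted p = 0.0236) called it higher.

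The neuropilins did not pass in edgeR with all libraries, although both were lower in every null-labelled library than in every control. Nrp2, the neuropilin of veins and lymphatic vessels, had 112, 88.6 and 91.0 CPM in null-labelled libraries and 139, 119.7 and 138 CPM in controls (log2 fold change -0.45 ± 0.11, adjusted p = 0.0714). It passed in DESeq2 (adjusted p = 5.33e-05), in limma-voom (adjusted p = 0.0367), with the replicate number as a block (adjusted p = 0.0109) and without null 1 (adjusted p = 0.0107), and not under the other alternatives (adjusted p from 0.0629 to 0.198). Nrp1 had 264, 254 and 261 CPM in null-labelled libraries and 293, 272 and 290.1 CPM in controls (log2 fold change -0.13 ± 0.04, adjusted p = 0.107). Dcc, the neuronal netrin receptor, was scarce at 3.48, 2.15 and 3.19 CPM in null-labelled libraries and 1.61, 2.39 and 2.83 CPM in controls.

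Among 42 intracellular partners 1 rose and 3 fell (9.52% called, beside 5.37% of all genes). Arhgef15, an exchange factor of vascular endothelium that acts downstream of Eph receptors, had 55.2, 51.8 and 54.4 CPM in null-labelled libraries and 82.5, 74.1 and 69.7 CPM in controls (log2 fold change -0.49 ± 0.06, adjusted p = 0.00374). Fes, a tyrosine kinase that binds plexin A1, had 20.6, 18.2 and 20.7 CPM in null-labelled libraries and 24.8, 23.9 and 25.8 CPM in controls (log2 fold change -0.32 ± 0.07, adjusted p = 0.0255). Rras, the small GTPase on which plexins act, had 46.7, 42.5 and 46.2 CPM in null-labelled libraries and 51.4, 54.5 and 53.4 CPM in controls (log2 fold change -0.23 ± 0.05, adjusted p = 0.0293). Each of these genes was lower in every null-labelled library. Tiam1, a Rac exchange factor that binds ephrins and Eph receptors, had 29.8, 29.98 and 29.6 CPM in null-labelled libraries and 25.3, 24.1 and 25.4 CPM in controls (log2 fold change 0.26 ± 0.05, adjusted p = 0.0188). Flrt2 and Arhgef15 kept their calls without any single library (adjusted p up to 0.0264 and 0.0263). The number of partners called was 4 without null 1, 2 without null 2 or null 3, 3 without control 2 and 0 with null 2 alone; the calls of Neo1, Rgmb, Fes, Tiam1 and Rras were each lost without null 2 (adjusted p of 0.133, 0.0804, 0.0877, 0.0752 and 0.112) and without null 3 (adjusted p of 0.0521, 0.0538, 0.0583, 0.0622 and 0.0765).

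**Figure D5:**
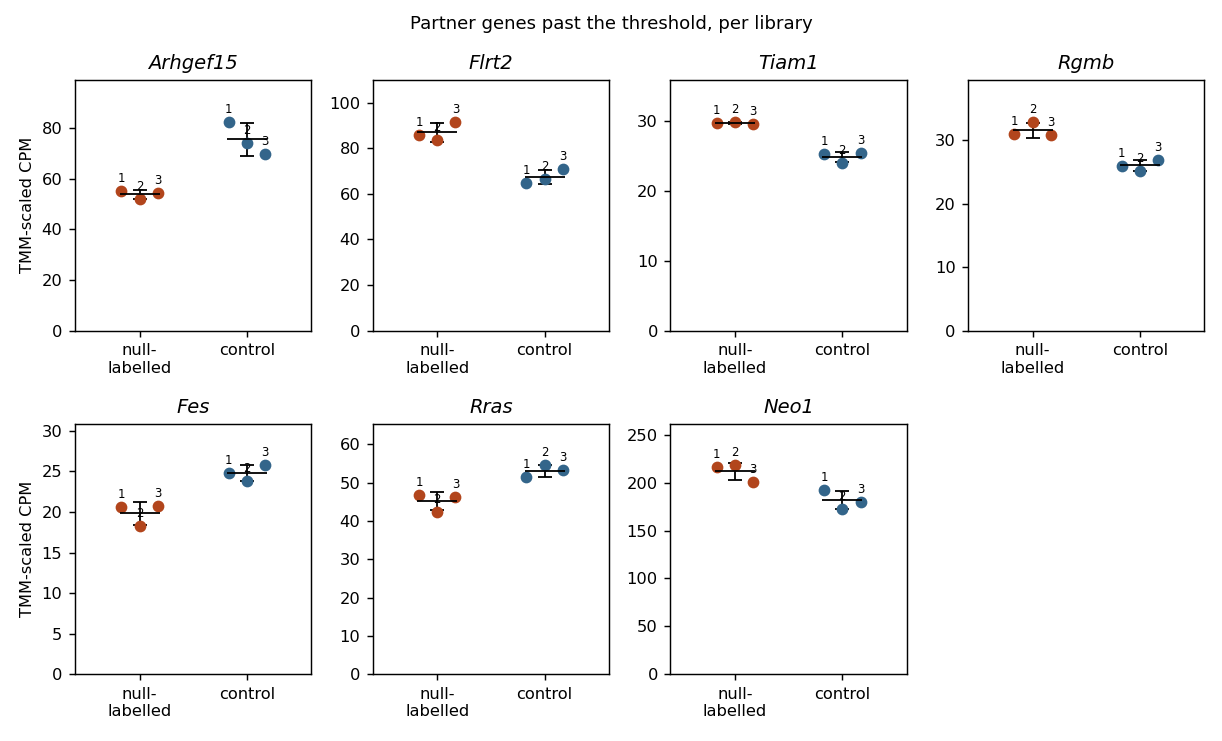
TMM-scaled CPM of the 7 partner genes past the threshold in each library, drawn as for the guidance genes. Flrt2, Tiam1, Rgmb and Neo1 are higher in the null-labelled libraries, on the left, and Arhgef15, Fes and Rras are lower, with no overlap between groups.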

How the data were processed

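Whole-number read counts per Ensembl gene, unscaled, are what the authors deposited, in 1 table for each library. The submitters' processing notes list cutadapt 1.13, STAR, DESeq2 and HTSeq 0.6.1p1 and build mm10; the role of each tool, the annotation release and the strand setting are not stated there. Of 25006 identifiers, 24991 were matched to GENCODE M21 (GRCm38) for symbols, coordinates and exon lengths. The members and lists were chosen with earlier results of these data known.

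In R 4.3.3, genes with a summed count of at least 60 were scaled by TMM (trimmed mean of M values) factors and compared by the robust quasi-likelihood test of edgeR 4.0.16, null-labelled over control, two-sided, with group as the only term and Benjamini-Hochberg adjustment over 14773 genes; a call is an adjusted p under 0.05. Adjusted p-values are edgeR's wherever no tool is given. At these depths 3 counts equal 0.0677 to 0.0852 CPM before scaling, covering counting error only. Values were printed per library for guidance genes called, with an unadjusted p under 0.05 or among the 2 highest per length in a family; of the partners, for those called and for Nrp1, Nrp2, Neo1 and Dcc. Sema3c, Plxna1, Plxna2, Plxnb1 and Rgma were picked with their values in view. The edgeR step was checked on simulated counts. Alternatives were other scalings and filters, DESeq2 1.42.0, limma-voom (limma 3.58.1), replicate and sex terms, left-out libraries and a threshold of 0.1.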

Additional observations from a re-analysis of the deposited data

How the results depend on the processing

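All 18 guidance genes with an unadjusted p under 0.05 kept the sign of their log2 fold change under all 16 alternatives tried for single genes. The count of guidance genes changed, 6 with all libraries, was 6 under RLE, upper quartile and total count scaling, filterByExpr, limma-voom and the sex term, 7 with no filter and 8 with DESeq2. It ranged from 2 to 13 when 1 library was left out: it was 4, 3 and 2 without null 1, null 2 and null 3, 5 and 6 without control 1 and control 2, and 13 without control 3, when Efna5, Epha7, Ephb2, Sema3a, Sema5a and Slit3 were added as higher and Ntn4 as lower. It was 0 with null 2 alone against the 3 controls, where the spread comes from the controls only, and 10 at an adjusted p under 0.1. The count over all genes, 794, ranged from 252 to 932 when 1 library was left out (375, 252 and 281 without null 1, null 2 and null 3, and 403 without control 2), was 51 with null 2 alone and 1426 at an adjusted p under 0.1. The partner count, 7, ranged from 2 to 6 when 1 library was left out and was 0 with null 2 alone. The cause of these shifts was not tested.

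Equal replicate numbers did not pair the libraries: deviations from the group means correlated at -0.05, -0.09 and -0.16 between libraries of the same number. With the replicate number as a block, 573 genes, 4 guidance genes and 7 partners changed; Plxnd1 and Sema3b were not among the 4 (adjusted p of 0.057 and 0.0637), and among the partners Rras was lost (adjusted p = 0.0689) and Nrp2 gained (adjusted p = 0.0109). At this depth Epha6, Epha8, Epha10 and Ntn5, with 9 counts or fewer in all, could not be compared.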

Other observations

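The receptor genes were low in control 1 more often than in any other library. Of 25 tested receptor genes, 13 had their lowest value of the 6 libraries in control 1 (52%), where 16.7% of all tested genes did. The highest value lay in null 1 for 9 (36%), where 16.7% of all tested genes had theirs. For 7 it lay in control 3 (28%), where 20.1% of all tested genes had theirs. Over all 53 guidance genes, control 1 held the lowest value of 19, and null 1 and control 3 that of 3 each. Null 1 held the highest value of 16 and control 3 that of 14. Without control 1 the median log2 fold change of the receptor genes was 0.04, and it was 0.14 with all libraries. These counts were noticed in the data and not tested.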
